A study of Mus musculus with 6 samples.

Results

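The 58 genes described here encode proteins that work on the chromosomes, the spindle and the cleavage furrow during mitosis. They form a fixed list of mitotic kinases and checkpoint proteins, kinetochore proteins, kinesins, spindle proteins, condensin subunits and cytokinesis proteins, matched by Entrez Gene ID to mouse symbols, and were taken as 58 of the 24532 genes in the deposited tables. RNA sequencing covered 6 libraries of cells sorted from the bone marrow of C57BL/6J mice, 2 biological duplicates in each of 3 populations. The first population, MAR1INT, lacked lineage markers, CD34 and c-Kit, carried CD200R3 and bound an intermediate amount of MAR1, an antibody that recognises the IgE receptor's alpha chain. The second, MAR1HI, came from the same gates with a high MAR1 level. The third, BaP, is a basophil precursor population that carried CD34, bound MAR1 and lacked lineage markers and c-Kit. All 3 populations thus shared the absence of lineage markers and c-Kit protein and the binding of MAR1, and the age and number of the mice behind each library were not given in the sources used here. The comparisons ask how the level of each mitosis gene differs among these populations. Levels are in TPM, a relative transcript abundance scaled for gene length, so levels of different genes can be set side by side.

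In mitosis, duplicated chromosomes are compacted by condensin, captured by spindle microtubules at a protein plate on the centromere called the kinetochore, and pulled apart once the spindle checkpoint is satisfied. The anaphase-promoting complex then marks securin and cyclin B for destruction, separase opens the cohesin rings, and the central spindle and an actomyosin ring divide the cell. Most genes of this machinery are transcribed in G2 and M phase, and their transcripts are scarce in resting cells. Basophils arise in the marrow from dividing precursors and end as non-dividing granulocytes.

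Expression of 57 of the 58 genes was lower in MAR1INT than in MAR1HI, and of the same 57 lower than in BaP, while no gene was called different between MAR1HI and BaP. The summed level of the 58 genes was 983 and 959 TPM in the MAR1INT libraries, 5102 and 6315 TPM in the MAR1HI libraries, and 4881 and 4491 TPM in the BaP libraries. The median gene stood at 6.82 and 6.28 TPM in MAR1INT, 65.7 and 85.3 TPM in MAR1HI, and 52.7 and 55.8 TPM in BaP. Both MAR1INT libraries thus lay far below the other 4, which overlapped in neither sum nor median with them. In these bulk samples, a smaller share of dividing cells and less mitotic RNA in each cell cannot be told apart.

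**Figure D1:**
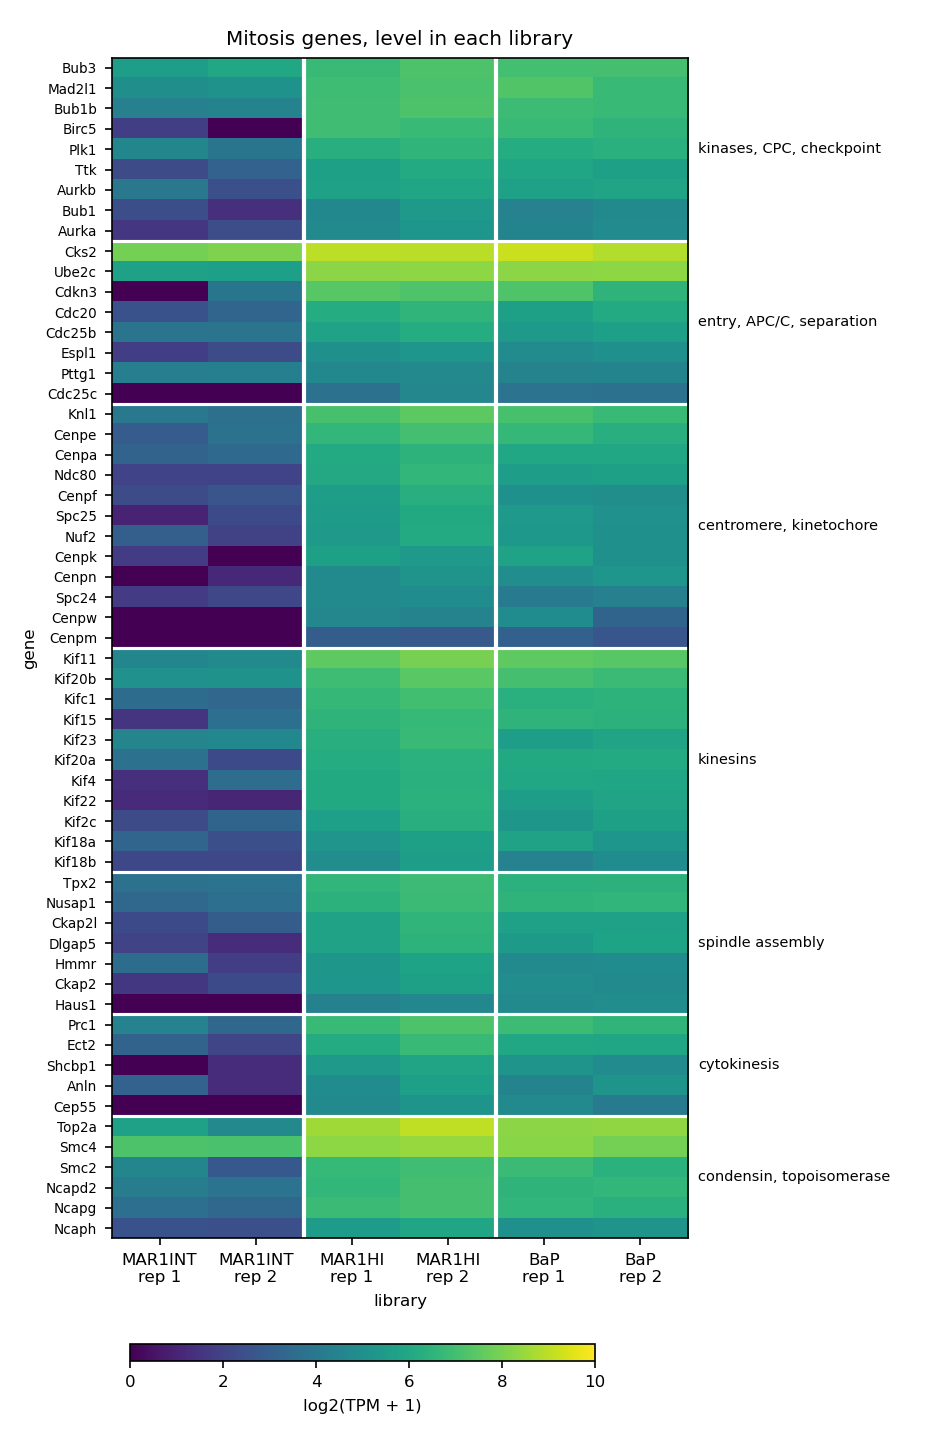
Level of each of the 58 mitosis genes (rows, grouped by role) in each library (columns, 2 replicates of MAR1INT, MAR1HI and BaP), as log2(TPM + 1) on the colour scale. The MAR1INT columns are darker than the others in nearly all rows, Pttg1 excepted, and the darkest cells are genes listed at 0.

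All 58 genes passed the filter on low values (1 TPM in no fewer than 2 libraries), and in MAR1HI and BaP the lowest value of any of them was 5.47 TPM. Differences were tested with limma on log2(TPM + 1) over the 11337 genes that passed, and called genes had a Benjamini-Hochberg adjusted p below 0.05, taken over all genes tested. Between MAR1INT and MAR1HI 57 genes were called lower, 0 were called higher and only Pttg1 was not called, against 14.5% of all genes tested called lower, 2.29% called higher and 16.8% called in either direction. Between MAR1INT and BaP 57 were called lower and 0 higher, against 20.4% called lower, 11.1% called higher and 31.5% called either way of all genes tested. The median log2 change of the 58 genes was -3.20 against MAR1HI (range -5.94 to -0.38) and -2.87 against BaP (range -5.71 to -0.20). The median of all genes tested was -0.36 and -0.16 in the same 2 comparisons, which share the MAR1INT libraries. For all 58 genes both MAR1INT libraries lay below both MAR1HI libraries, as they did for 42.2% of all genes tested. Both also lay below both BaP libraries for all 58, against 39.1% of all genes tested. In a moderated F test over the 3 groups 57 of the 58 genes differed, against 26.6% of all genes tested.

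The median change of the 58 genes in MAR1INT minus MAR1HI was -3.20 with TPM, -3.03 with FPKM, -2.73 with quantile-normalized values and -2.92 with factors from the median of ratios. Between MAR1INT and MAR1HI the median of all genes tested was -0.36 with TPM, -0.32 with FPKM, 0.11 with quantile-normalized values and -0.11 with those factors. Relative to it, the median of the 58 genes stood at -2.84, -2.71, -2.84 and -2.81 (log2) under these 4 scalings. Of all genes called between MAR1INT and MAR1HI, 13.7% were higher with TPM, 45.3% with quantile-normalized values and 39.7% with those factors. Between MAR1INT and BaP the share was 35.3% with TPM and 55.1% after quantile normalization. The count of mitosis genes called lower against MAR1HI was 35 without MAR1HI replicate 2, when 255 of all genes were called lower. It was 47 without MAR1HI replicate 1, when 567 of all genes were called lower.

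**Figure D2:**
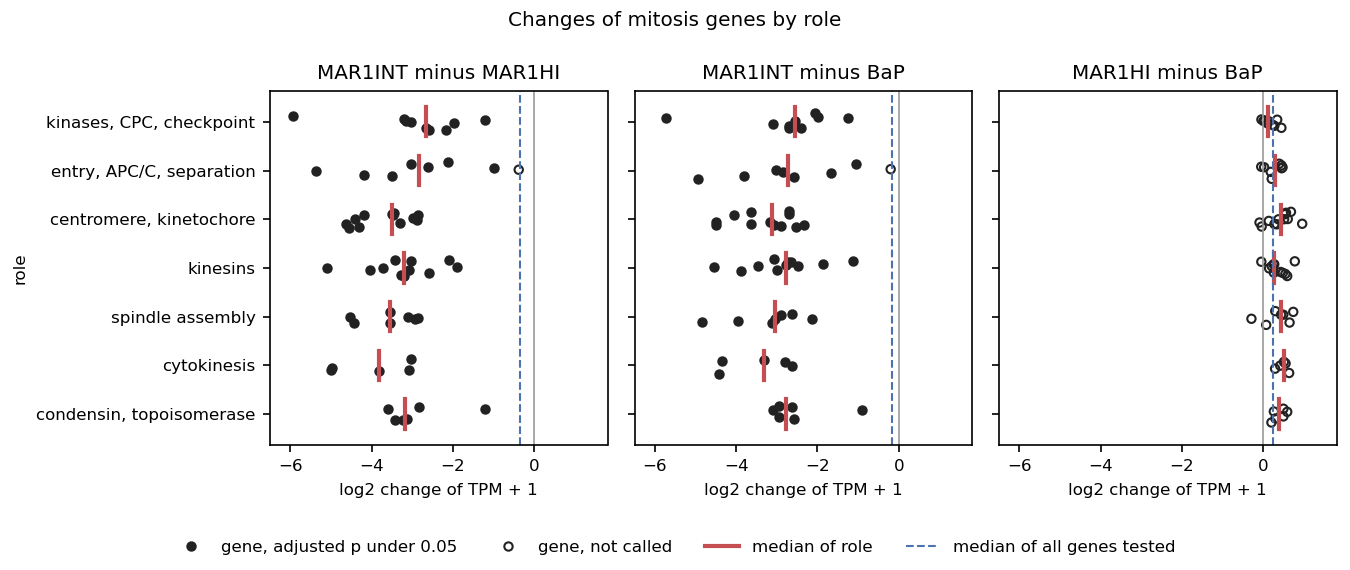
Log2 change of TPM + 1 of each mitosis gene (points, filled where the limma adjusted p was under 0.05) by role (rows) in 3 comparisons (panels), with the median of each role as a red bar and the median of all genes tested as a dashed line. All points but Pttg1 are filled in both comparisons that hold MAR1INT, and none is filled in MAR1HI minus BaP.

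As a share of the MAR1HI mean, the level in MAR1INT had a median of 9.14% over the 58 genes (quartiles 6.44% and 13.2%), against 76.1% over all genes with a level in MAR1HI. It was under 10% for 34 of the 58 genes, which is 58.6%, and for 8.83% of all genes. The 5 genes above 25% were Pttg1 with 75.7%, Cks2 with 50.02%, Smc4 with 43.2%, Bub3 with 42.9% and Kif23 with 25.7%. Kinetochore genes had a median of 5.77% and cytokinesis genes of 6.36%, whereas checkpoint and kinase genes had a median of 15.0%. The spread within each role was wide, and the roles were not tested against each other.

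**Figure D3:**
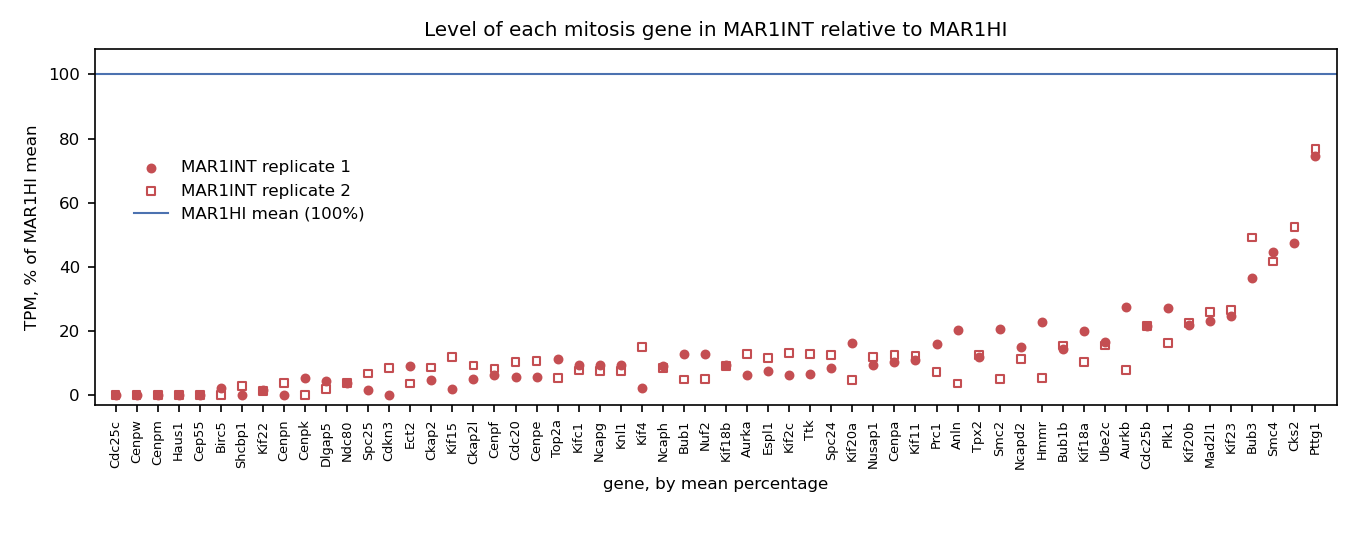
TPM of each mitosis gene in MAR1INT replicate 1 (filled circles) and replicate 2 (open squares) as a percentage of the MAR1HI mean, with genes ordered along the horizontal axis by their mean percentage. Most genes lie under 20%, and only Bub3, Smc4, Cks2 and Pttg1 lie above 30% in both MAR1INT libraries.

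The promoters of these genes were also searched for 2 sequence elements, which were not used to choose the genes. Because these elements are known from late cell cycle genes, their counts describe the list and do not depend on the libraries. Many genes of late cell cycle carry a cell cycle genes homology region (CHR), which is bound by the MuvB protein complexes, and CCAAT boxes, which are bound by the factor NF-Y. RefSeq promoter windows of GRCm38.p6, running from 250 bases before to 50 bases after the start of transcription, were found for 49 of the 58 genes (55 windows). The CHR was searched as TTTGAA or TTCGAA and the CCAAT box as CCAAT, both on either strand. A CHR lay in a window of 39 of the 49 genes (79.6%), against 21.7% of the 27025 genes in the table. It started within 100 bases before the start of transcription or after it in 35 genes (71.4%), against 9.87% of all genes. A CCAAT box was present in 35 genes (71.4%) against 41.1%, and at least 2 boxes in 22 genes (44.9%) against 13.3%. Both a CCAAT box and a CHR in that near position were found in 29 genes (59.2%), against 3.93% of all genes. Neither motif was found for Birc5, Mad2l1, Pttg1, Nuf2, Kif18a, Nusap1 and Ncaph. For Pttg1 the RefSeq window lay wholly inside the gene's own interval (43420248 to 43426248, - strand). Bases upstream of that interval were thus not searched, and the result for Pttg1 does not describe them.

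**Figure D4:**
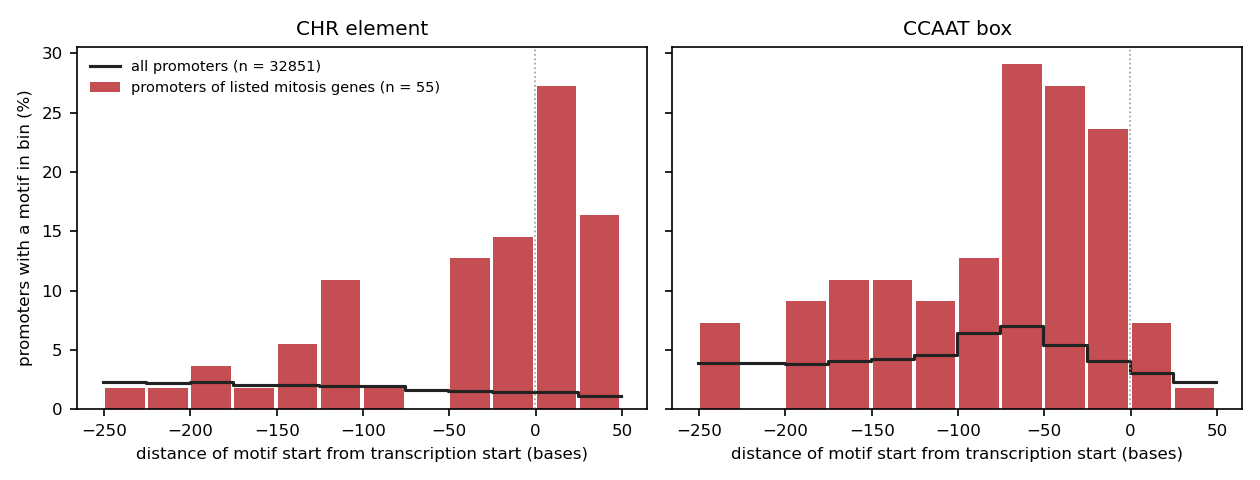
Share of promoter windows with a CHR element (left) or a CCAAT box (right) starting in each 25-base bin, against the distance of the motif from the start of transcription in bases, for the 55 windows of mitosis genes (bars) and all 32851 windows (line). The CHR is most frequent in the first 25 transcribed bases, in 27.3% of the mitosis windows against 1.43% of all, and the CCAAT box between 75 and 51 bases before the start, in 29.1% against 6.99%.

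The genes shown next were picked from those that hold a CHR or CCAAT box, so they do not stand for their roles. Birc5, Knl1 and Pttg1 held neither motif within the span shown. The stretches below show 1 gene of each role, and Cks2 as a gene with a small change. They run from 150 bases before to 30 bases after the RefSeq start of transcription. Each runs 5′ to 3′ on the gene's strand, with CHR and CCAAT letters of either strand in capitals. Positions count from 1 at the first transcribed base, and there is no position 0.
Ttk: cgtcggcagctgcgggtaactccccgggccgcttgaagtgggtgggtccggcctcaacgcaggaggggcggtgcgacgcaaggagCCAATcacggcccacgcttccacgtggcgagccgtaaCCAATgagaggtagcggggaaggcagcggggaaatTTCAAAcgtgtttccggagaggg
Cdkn3: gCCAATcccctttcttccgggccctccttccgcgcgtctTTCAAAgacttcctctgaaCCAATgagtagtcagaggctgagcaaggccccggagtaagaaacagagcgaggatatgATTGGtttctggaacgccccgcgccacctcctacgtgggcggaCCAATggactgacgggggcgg
Cenpw: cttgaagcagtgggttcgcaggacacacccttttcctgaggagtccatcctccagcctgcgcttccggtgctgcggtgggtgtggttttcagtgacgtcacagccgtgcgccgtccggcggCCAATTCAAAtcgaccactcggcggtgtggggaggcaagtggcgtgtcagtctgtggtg
Kif22: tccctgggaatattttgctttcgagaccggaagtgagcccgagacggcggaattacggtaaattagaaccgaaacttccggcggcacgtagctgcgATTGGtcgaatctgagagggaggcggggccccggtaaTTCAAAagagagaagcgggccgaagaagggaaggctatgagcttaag
Hmmr: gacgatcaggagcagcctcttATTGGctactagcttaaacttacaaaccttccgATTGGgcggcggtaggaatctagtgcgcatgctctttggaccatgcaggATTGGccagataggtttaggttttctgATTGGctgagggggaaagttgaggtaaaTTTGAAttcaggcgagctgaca
Prc1: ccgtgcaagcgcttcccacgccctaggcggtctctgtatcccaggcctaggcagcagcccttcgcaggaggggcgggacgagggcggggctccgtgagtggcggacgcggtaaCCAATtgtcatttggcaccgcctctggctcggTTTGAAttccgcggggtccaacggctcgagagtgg
Top2a: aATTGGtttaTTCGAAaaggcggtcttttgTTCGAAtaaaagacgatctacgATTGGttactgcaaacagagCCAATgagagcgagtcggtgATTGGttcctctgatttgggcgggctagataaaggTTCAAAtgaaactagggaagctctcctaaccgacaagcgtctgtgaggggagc
Cks2: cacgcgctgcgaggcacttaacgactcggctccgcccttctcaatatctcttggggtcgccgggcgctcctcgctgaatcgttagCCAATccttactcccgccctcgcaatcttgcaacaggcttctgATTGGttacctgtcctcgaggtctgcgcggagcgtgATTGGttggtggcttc
These are chr9:83834539-83834718 (+ strand) for Ttk, chr14:46760391-46760570 (+ strand) for Cdkn3, chr10:30200511-30200690 (- strand) for Cenpw, chr7:127042391-127042570 (- strand) for Kif22, chr11:40733408-40733587 (- strand) for Hmmr, chr7:80294301-80294480 (+ strand) for Prc1, chr11:99024160-99024339 (- strand) for Top2a and chr13:51645082-51645261 (+ strand) for Cks2 in GRCm38.p6. In Ttk a pair of CCAAT boxes at -65 and -28 precedes a CHR at 8. Hmmr has 4 CCAAT boxes, at -129, -96, -47 and -20, and a CHR at 9. Cenpw has a CCAAT box at -29 that runs into a CHR at -25, the 1 window of the 55 in which the motifs overlap. Top2a holds 3 CHR matches, at -140, -120 and -23, among 4 CCAAT boxes. Cks2 shows 3 CCAAT boxes and no CHR. Among the 49 genes, the 35 with a near CHR had a median log2 change of -3.14 in MAR1INT against MAR1HI, and the other 14 had a median of -3.21. A match describes these letters in the window and is not evidence of binding.

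Of the kinases, the chromosomal passenger complex and the spindle checkpoint, all 9 genes were lower in MAR1INT, with a median log2 change of -2.67 against MAR1HI and -2.55 against BaP. Birc5 (survivin, mm10 chromosome 11, 117849237 to 117855743), the subunit that brings Aurora B to the centromere, was listed at 2.58 and 0 TPM in MAR1INT, 123 and 107.8 TPM in MAR1HI, and 108.2 and 89.4 TPM in BaP. Birc5 had the most negative log2 change of the 58 genes, -5.94 ± 0.52 (SE) against MAR1HI (limma adjusted p = 0.000218), and a value that rests on a level of 0 depends on the 1 TPM added before the logarithm. Ttk (Mps1, chromosome 9, 83834689 to 83872390), the kinase that starts checkpoint signalling at unattached kinetochores, had 3.89 and 7.75 TPM in MAR1INT, 50.7 and 68.6 TPM in MAR1HI, and 58.9 and 50.9 TPM in BaP. Ttk fell in MAR1INT with a log2 change of -3.20 ± 0.36 against MAR1HI (adjusted p = 0.000637) and -3.09 ± 0.36 against BaP (adjusted p = 0.000385), the highest MAR1INT value lying far under the lowest of the others.

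Bub3 (chromosome 7, 131560370 to 131571892), the adaptor that carries Bub1 and Bub1b to the kinetochore, was the least changed of this class. Bub3 had 46.9 and 62.8 TPM in MAR1INT, 108.1 and 147 TPM in MAR1HI, and 129 and 132 TPM in BaP, so the MAR1INT libraries were lower without overlap. Its log2 change was -1.20 ± 0.25 against MAR1HI (adjusted p = 0.0129) and -1.25 ± 0.25 against BaP (adjusted p = 0.00587), and without MAR1HI replicate 2 it was not called (adjusted p = 0.105). Its partners kept smaller shares of the MAR1HI mean, with 8.95% for the kinase Bub1 and 15.01% for Bub1b, the checkpoint protein BubR1. Mad2l1 (Mad2), which inhibits Cdc20, kept 24.6%. Among the kinases, Aurka of the spindle poles kept 9.62%, Aurkb of the passenger complex 17.7% and the polo-like kinase Plk1 21.7%. Aurkb differed between the MAR1INT libraries, with 15.2 and 4.39 TPM, and both lay under the lowest MAR1HI or BaP value of 52.2 TPM. Without MAR1HI replicate 2, 3 of the 9 genes were called against MAR1HI (Birc5, Ttk and Bub1b), and without MAR1HI replicate 1 all but Aurkb were.

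Of the genes for mitotic entry, the anaphase-promoting complex and sister separation, 7 of 8 were lower in MAR1INT and Pttg1 was not called. The median log2 change was -2.83 against MAR1HI and -2.71 against BaP. Cks2 (chromosome 13, 51645232 to 51650662), a small subunit that binds cyclin-dependent kinases, had the highest mean level of all 58 genes. Cks2 had 239.7 and 265 TPM in MAR1INT, 509.8 and 498 TPM in MAR1HI, and 586 and 465 TPM in BaP. The MAR1INT level was 50.02% of the MAR1HI mean, with a log2 change of -0.998 ± 0.19 (adjusted p = 0.00887), and 47.96% of the BaP mean, with a change of -1.05 ± 0.19 (adjusted p = 0.00368). It was not called against MAR1HI without MAR1HI replicate 1 (adjusted p = 0.0639), without MAR1HI replicate 2 (0.0757) or with median-of-ratios factors (0.0911). Cks2 shares stretches of up to 100% identity with 5 processed pseudogenes in the reference, so its level is uncertain.

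Pttg1 (securin, chromosome 11, 43420248 to 43426248), the inhibitor that holds separase in check until anaphase, had 18.4 and 18.9 TPM in MAR1INT, 24.3 and 25.04 TPM in MAR1HI, and 21.4 and 21.8 TPM in BaP. The 3 groups did not overlap and each pair of duplicates agreed closely, yet the groups lay within a narrow band. The log2 change of Pttg1 was -0.38 ± 0.31 against MAR1HI (adjusted p = 0.435, 95% interval -1.07 to 0.31) and -0.20 ± 0.31 against BaP (adjusted p = 0.651). After quantile normalization its change against MAR1HI was 0.01, the opposite direction. Its target separase, Espl1, kept 9.69% of the MAR1HI mean. The difference in change between these genes was not tested.

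Cdc25c, a phosphatase that activates Cdk1, was listed at 0 in both MAR1INT libraries, at 12.4 and 23.7 TPM in MAR1HI and at 13.02 and 12.8 TPM in BaP. It was called lower (limma adjusted p = 0.000472 against MAR1HI and 0.0004 against BaP). Its relative Cdc25b kept 21.6% of the MAR1HI mean, with 13.5 and 13.6 TPM in MAR1INT against 53.7 and 71.7 TPM in MAR1HI. Cdkn3 (chromosome 14, 46760541 to 46771525), a phosphatase that acts on cyclin-dependent kinases, was listed at 0 and 13.7 TPM in MAR1INT, 166 and 151 TPM in MAR1HI, and 150.2 and 89.4 TPM in BaP. The MAR1INT values of Cdkn3 thus disagreed with each other but both lay below the rest, and the call against MAR1HI (adjusted p = 0.00539) was lost without MAR1HI replicate 1 (0.107) or replicate 2 (0.135). Ube2c, the ubiquitin-conjugating enzyme of the anaphase-promoting complex, kept 16.1%, with 52.1 and 48.5 TPM in MAR1INT, 308 and 316 TPM in MAR1HI, and 302 and 313 TPM in BaP. Cdc20, the activator of that complex, kept 8.04%.

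The 12 centromere and kinetochore genes were all lower in MAR1INT, with a median log2 change of -3.49 against MAR1HI and -3.12 against BaP. None of them kept more than 11.5% of the MAR1HI mean, the share of Cenpa, the histone H3 variant that marks the centromere. Knl1 (chromosome 2, 119047119 to 119104121), the scaffold on which checkpoint proteins gather, was the most abundant of the class. Knl1 had 15.1 and 12.04 TPM in MAR1INT, 137 and 178 TPM in MAR1HI, and 135 and 107 TPM in BaP. It fell with a log2 change of -3.44 ± 0.27 against MAR1HI (adjusted p = 0.00015) and -3.07 ± 0.27 against BaP (adjusted p = 0.0001). The 4 subunits of the NDC80 complex, which grips microtubules, kept 3.74% (Ndc80), 9.02% (Nuf2), 10.6% (Spc24) and 4.26% (Spc25). Ndc80 stood at 3.02 and 3.07 TPM in MAR1INT, against 64.9 and 97.8 TPM in MAR1HI and 48.05 and 50.7 TPM in BaP.

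Several subunits of the constitutive centromere network, which stays on the centromere through the cell cycle, were listed at 0 in MAR1INT. Cenpm (chromosome 15, 82233776 to 82244747) was at 0 in both MAR1INT libraries, at 6.72 and 5.86 TPM in MAR1HI and at 7.66 and 5.47 TPM in BaP, the lowest level of the 58 genes outside MAR1INT. Cenpw (chromosome 10, 30196009 to 30200540) was also at 0 in both, at 24.04 and 21.1 TPM in MAR1HI and at 28.1 and 8.36 TPM in BaP. Both were called lower against MAR1HI (limma adjusted p = 0.00207 for Cenpm and 0.000871 for Cenpw), and Cenpw was not called without MAR1HI replicate 2 (adjusted p = 0.0539). Cenpk (chromosome 13, 104228611 to 104249622) was listed at 2.43 and 0 TPM in MAR1INT, 51.1 and 40.1 TPM in MAR1HI, and 53.04 and 31.8 TPM in BaP. Its call against MAR1HI (adjusted p = 0.000943) was lost without MAR1HI replicate 1 (0.0516) or replicate 2 (0.0590). Cenpn was listed at 0 and 1.22 TPM in MAR1INT and had 26.8 and 35.1 TPM in MAR1HI. Of the outer kinetochore proteins, the motor Cenpe kept 8.28% of the MAR1HI mean and Cenpf 7.29%. Without MAR1HI replicate 2, Nuf2 and Spc25 were not called against MAR1HI either, which left 8 of 12.

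All 11 kinesins, motors that slide, cross-link or shorten microtubules, were lower in MAR1INT, with a median log2 change of -3.21 against MAR1HI and -2.78 against BaP. Kif11 (Eg5, chromosome 19, 37376403 to 37421859), which pushes the spindle poles apart, was the most abundant, with 23.4 and 26.05 TPM in MAR1INT, 181 and 244 TPM in MAR1HI, and 181 and 170.0 TPM in BaP. Kif11 fell with a log2 change of -3.04 ± 0.24 against MAR1HI (adjusted p = 0.00015), and its MAR1INT level was 11.6% of the MAR1HI mean. Kif15 (chromosome 9, 122951081 to 123018733), a motor that can stand in for Kif11, had 1.84 and 11.4 TPM in MAR1INT, 89.8 and 103 TPM in MAR1HI, and 89.5 and 84.7 TPM in BaP. The MAR1INT values of Kif15 differed from each other several-fold, and its call against MAR1HI (adjusted p = 0.00175) was lost without MAR1HI replicate 1 (0.0637) or replicate 2 (0.0870). Kif22 (Kid, chromosome 7, 127027731 to 127042420), a chromokinesin that pushes chromosome arms away from the poles, had 1.36 and 1.09 TPM in MAR1INT, 66.7 and 83.6 TPM in MAR1HI, and 45.8 and 56.7 TPM in BaP. Kif22 had the lowest limma adjusted p of the 58 genes, 8.36e-05 against MAR1HI and 5.68e-05 against BaP, with log2 changes of -5.09 ± 0.33 and -4.55 ± 0.33.

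Kif23 (MKLP1, chromosome 9, 61917278 to 61946799), the motor of the centralspindlin complex at the central spindle, changed least among the kinesins. Kif23 had 22.6 and 24.3 TPM in MAR1INT, 75.8 and 106 TPM in MAR1HI, and 48.3 and 55.96 TPM in BaP. All 3 groups were apart, with MAR1HI the highest. Its log2 change was -1.89 ± 0.28 against MAR1HI (adjusted p = 0.00216) and -1.12 ± 0.28 against BaP (adjusted p = 0.014). The call against BaP was lost without BaP replicate 1 (0.0640) or BaP replicate 2 (0.116). Kif20b, a kinesin of late mitosis, kept 22.3% of the MAR1HI mean and Kif20a (MKLP2), which moves the passenger complex to the central spindle, 10.6%. Of the kinesins that limit microtubule length, Kif18a kept 15.1%, Kif18b 9.26% and the depolymerase Kif2c (MCAK) 9.69%. The chromokinesin Kif4 kept 8.63% with 1.59 and 11.02 TPM in the MAR1INT libraries, and the minus-end motor Kifc1 kept 8.53%. Without MAR1HI replicate 2, 6 of the 11 kinesins were called against MAR1HI (not Kif15, Kif18a, Kif20a, Kif2c and Kif4). Without MAR1HI replicate 1 it was 8 (not Kif15, Kif20a and Kif4).

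The 7 genes of spindle assembly and microtubule binding were all lower in MAR1INT, with a median log2 change of -3.54 against MAR1HI and -3.04 against BaP. Tpx2 (chromosome 2, 152847964 to 152895321), which activates Aurora A and nucleates microtubules near chromosomes, was the most abundant, with 12.5 and 12.98 TPM in MAR1INT, 95.05 and 113 TPM in MAR1HI, and 83.1 and 85.9 TPM in BaP. Tpx2 was close between duplicates of MAR1INT and of BaP and fell with a log2 change of -2.93 ± 0.25 against MAR1HI (adjusted p = 0.000215). Dlgap5 (HURP, chromosome 14, 47387779 to 47418407), which stabilises kinetochore fibres, had 3.18 and 1.40 TPM in MAR1INT, 53.02 and 87.05 TPM in MAR1HI, and 42.7 and 54.2 TPM in BaP. Its change was -4.44 ± 0.40 against MAR1HI (adjusted p = 0.000249) and -3.95 ± 0.40 against BaP (adjusted p = 0.000209). Haus1, a subunit of the augmin complex that branches microtubules, was listed at 0 in both MAR1INT libraries, at 20.1 and 24.6 TPM in MAR1HI and at 26.3 and 28.7 TPM in BaP (limma adjusted p = 0.000215 against MAR1HI and 7.83e-05 against BaP). It was the only one of the 58 genes with both MAR1HI libraries below both BaP libraries.

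Hmmr (chromosome 11, 40701388 to 40733437), a spindle protein and hyaluronan receptor, changed least in this class. Hmmr had 10.6 and 2.54 TPM in MAR1INT, 38.5 and 54.3 TPM in MAR1HI, and 25.8 and 28.4 TPM in BaP. The MAR1INT libraries disagreed with each other, and both stayed under the lowest BaP value. Its log2 change was -2.87 ± 0.52 against MAR1HI (adjusted p = 0.00615) and -2.13 ± 0.52 against BaP (adjusted p = 0.0133). The call against MAR1HI was lost without MAR1HI replicate 1 (0.0782) or replicate 2 (0.133). The call against BaP was lost without BaP replicate 2 (0.0552), MAR1HI replicate 1 (0.0548) or MAR1HI replicate 2 (0.0551), and with only MAR1INT and BaP in the fit (0.0598). The microtubule-associated proteins Ckap2 and Ckap2l kept 6.65% and 7.18% of the MAR1HI mean, and Nusap1, which bundles spindle microtubules, kept 10.7%.

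All 5 cytokinesis genes were lower in MAR1INT, and their median log2 change was the most negative of the 7 roles, -3.82 against MAR1HI and -3.32 against BaP. Prc1 (chromosome 7, 80294451 to 80316259), which bundles antiparallel microtubules in the central spindle, had 20.4 and 9.42 TPM in MAR1INT, 107.8 and 148 TPM in MAR1HI, and 114 and 92.9 TPM in BaP. Prc1 fell with a log2 change of -3.09 ± 0.36 against MAR1HI (adjusted p = 0.000722), a call that was lost without MAR1HI replicate 2 (0.0548). Ect2, the exchange factor that switches on RhoA at the furrow, kept 6.36% of the MAR1HI mean. Anln (anillin, chromosome 9, 22331214 to 22389206), which links the contractile ring to the membrane, had 7.87 and 1.43 TPM in MAR1INT, 28.02 and 49.2 TPM in MAR1HI, and 21.5 and 35.4 TPM in BaP. Its MAR1INT libraries differed several-fold and both lay under the others. Its call against MAR1HI (log2 change -3.04 ± 0.60, adjusted p = 0.00899) was lost without MAR1HI replicate 1 (0.0813) or replicate 2 (0.166), and that against BaP (adjusted p = 0.00966) without BaP replicate 2 (0.0546).

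Both late-acting genes of the class were near or at 0 in MAR1INT. Cep55 (chromosome 19, 38055025 to 38074425), which recruits the abscission machinery to the midbody, was listed at 0 in both MAR1INT libraries, at 26.4 and 34.9 TPM in MAR1HI and at 26.4 and 15.8 TPM in BaP (limma adjusted p = 0.000215 against MAR1HI and 0.000167 against BaP). Shcbp1, a midbody protein, was listed at 0 and 1.41 TPM in MAR1INT, 41.2 and 56.9 TPM in MAR1HI, and 35.2 and 26.95 TPM in BaP. Shcbp1 was called lower against MAR1HI (limma adjusted p = 0.000328) and BaP (0.000294), and its MAR1HI libraries lay above both BaP libraries.

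The 5 condensin I subunits and Top2a were all lower in MAR1INT, with a median log2 change of -3.18 against MAR1HI and -2.78 against BaP. Top2a (topoisomerase II alpha, chromosome 11, 98992947 to 99024189), which untangles sister chromatids, had 51.7 and 24.8 TPM in MAR1INT, 377 and 529 TPM in MAR1HI, and 308 and 326 TPM in BaP. Top2a was the most abundant of the 58 genes in MAR1HI replicate 2 and fell with a log2 change of -3.60 ± 0.33 against MAR1HI (adjusted p = 0.000255) and -3.11 ± 0.33 against BaP (adjusted p = 0.000254). Smc4 (chromosome 3, 69004972 to 69034623), an ATPase arm of condensin, had 147 and 137 TPM in MAR1INT, 313 and 346 TPM in MAR1HI, and 301 and 238 TPM in BaP. Smc4 kept 43.2% of the MAR1HI mean, with a log2 change of -1.20 ± 0.21 (adjusted p = 0.00473), and 52.8% of the BaP mean, with a change of -0.91 ± 0.21 (adjusted p = 0.00973). The first call was lost without MAR1HI replicate 2 (0.0655) and the second without BaP replicate 1 (0.109). Its partner arm Smc2 kept 12.9%, with 23.2 and 5.74 TPM in MAR1INT against 102 and 122 TPM in MAR1HI, and was not called against MAR1HI without either MAR1HI library. Ncapg (chromosome 5, 45669925 to 45700547), a HEAT-repeat subunit of condensin I, had 11.6 and 9.40 TPM in MAR1INT, 113 and 132 TPM in MAR1HI, and 94.1 and 79.6 TPM in BaP. It fell with a log2 change of -3.43 ± 0.26 against MAR1HI (adjusted p = 0.00015). The other subunits kept 13.2% (Ncapd2) and 8.88% (Ncaph).

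Between MAR1HI and BaP, none of the 58 genes was called in either direction by limma, against 1.83% of all genes tested called higher, 0.662% called lower and 2.49% called either way. At an unadjusted p under 0.05 there were 2 of the 58 (3.45%), Cenpf and Kif23, both higher in MAR1HI, against 1980 of all genes tested (17.5%). With only the MAR1HI and BaP libraries in the fit, 1 gene was called, Cenpf. Cenpf, a large outer kinetochore protein, had 3.85 and 5.21 TPM in MAR1INT, 47.8 and 76.5 TPM in MAR1HI, and 31.3 and 30.1 TPM in BaP, and its log2 change in MAR1HI against BaP was 0.96 ± 0.35 (limma adjusted p = 0.204, 95% interval 0.16 to 1.75). Kif23 had a change of 0.77 ± 0.28 (adjusted p = 0.189, 95% interval 0.15 to 1.39). For Ube2c the 95% interval ran from -0.42 to 0.46 around a change of 0.02. Such an interval gives the precision of the estimate and is not a detection limit, because calls rested on the adjusted p. The absence of a call does not show equal levels.

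The size of this comparison, and the sign for single genes, depended on the scaling, while the median of the 58 genes was above 0 under the 4 scalings. With TPM 52 of the 58 genes had a change above 0, with a median of 0.34 beside 0.24 for all genes tested. With FPKM 39 were above 0 (median 0.11, all genes 0.03), with quantile-normalized values 34 (median 0.09, all genes 0.02) and with factors from the median of ratios 30 (median 0.04, all genes -0.04). The share of called genes that were higher in MAR1HI was 73.4%, 57.3%, 56.9% and 60.0% under these 4 scalings. Both MAR1HI libraries lay above both BaP libraries for 31 of the 58 genes (53.4%), against 38.2% of all genes tested, and below both for 1 gene (Haus1, 1.72%), against 15.3%. MAR1HI replicate 2 exceeded replicate 1 for 52 of the 58 genes (89.7%), and for 85.9% of all genes tested. By mean TPM, 51 genes were highest in MAR1HI, 7 in BaP and 0 in MAR1INT.

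**Figure D5:**
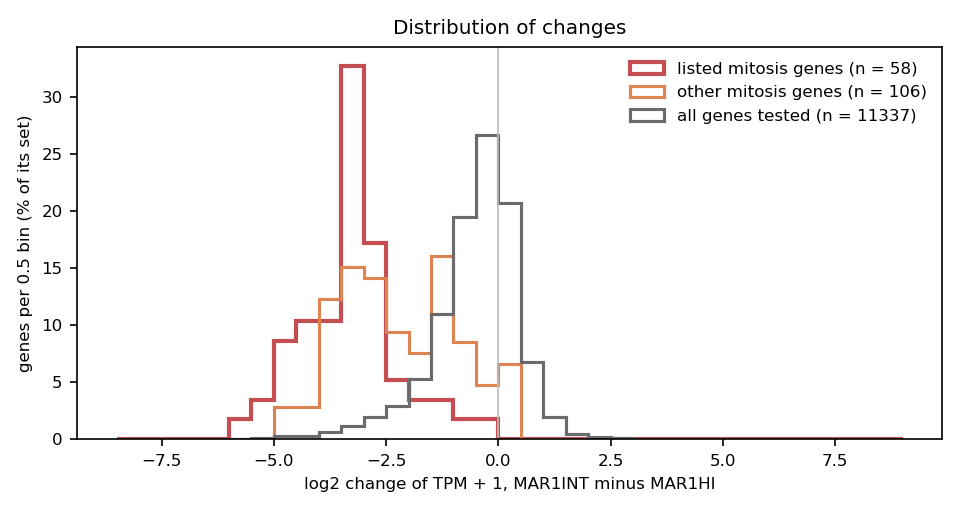
Share of genes per bin of 0.5 (vertical axis, percent of each set) against the log2 change of TPM + 1 in MAR1INT minus MAR1HI, for the 58 listed mitosis genes, 106 other mitosis genes and all 11337 genes tested. The 58 genes gather near their median of -3.20, the other mitosis genes spread from there to above 0 with a median of -2.46, and all genes centre at -0.36.

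A further list of 106 tested mitosis genes was measured beside them. It was drawn from general knowledge of the process and not by the genes' values. Earlier results of these data were known when it was drawn, so it is not an independent check. Between MAR1INT and MAR1HI 77 of the 106 were called lower and 0 higher, against 14.5% and 2.29% of all genes tested, with a median log2 change of -2.46. Between MAR1INT and BaP 72 were called lower and 2 higher, against 20.4% and 11.1% of all genes tested, with a median of -2.24. Between MAR1HI and BaP limma called 0 in either direction, against 2.49% of all genes tested. There 6 of the 106 (5.66%) had an unadjusted p under 0.05, against 17.5% of all genes tested, and the median was 0.30. The most negative change against MAR1HI was that of Melk, a mitotic kinase, with 0.0580 and 1.23 TPM in MAR1INT, 39.6 and 47.7 TPM in MAR1HI, and 35.5 and 32.7 TPM in BaP. Ccnb1, the mitotic cyclin B1, had 4.10 and 7.09 TPM in MAR1INT, 119 and 168 TPM in MAR1HI, and 97.1 and 128 TPM in BaP. Its log2 change was -4.47 ± 0.33 against MAR1HI (adjusted p = 0.000142). Depdc1a was listed at 0 and 5.09 TPM in MAR1INT, against 53.3 and 89.6 TPM in MAR1HI. Gtse1, a microtubule-binding protein, had 0.0623 TPM and a listed 0 in MAR1INT, against 21.97 and 25.7 TPM in MAR1HI.

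The 4 genes at the other end of this list were not called against MAR1HI. Rhoa, the GTPase of the furrow and of cell shape in general, had 464 and 389 TPM in MAR1INT, 319 and 306 TPM in MAR1HI, and 303 and 287 TPM in BaP. Numa1, a spindle pole protein that is also part of the interphase nucleus, had 97.5 and 92.2 TPM in MAR1INT, 69.7 and 85.5 TPM in MAR1HI, and 68.4 and 68.7 TPM in BaP. Both were above MAR1HI in each MAR1INT library without being called (log2 change 0.44 ± 0.19, adjusted p = 0.149, and 0.29 ± 0.23, adjusted p = 0.429). The anaphase-promoting complex subunits Anapc2 and Cdc16 had changes of 0.36 ± 0.23 (adjusted p = 0.338) and 0.19 ± 0.23 (adjusted p = 0.621) against MAR1HI. Anapc2 and the cohesin subunit Stag2 were the 2 genes called higher in MAR1INT than in BaP, by 0.73 ± 0.23 (adjusted p = 0.0399) and 0.70 ± 0.23 (adjusted p = 0.0426).

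The genes were also grouped by complex, a grouping made after the values were seen, and no test was made between the groups. Between MAR1INT and MAR1HI, where 14.5% of all genes tested were called lower, 5 of 11 genes of cohesin and its regulators were (the subunit Rad21, its partner Pds5a, sororin Cdca5 and the shugoshins Sgo1 and Sgo2a), with a median log2 change of -0.69. The change was -4.37 ± 0.61 for Cdca5 (adjusted p = 0.00176), -3.36 ± 0.61 for Sgo1 (adjusted p = 0.00635) and -2.49 ± 0.39 for Sgo2a (adjusted p = 0.00312). The cohesin subunits Smc1a, Smc3, Stag1 and Stag2 and the regulators Wapl and Pds5b were not called. Of 11 subunits of the anaphase-promoting complex 1 was called lower (Anapc5), with a median of -0.69. All 5 condensin I subunits (median -3.14) and all 4 NDC80 subunits (median -3.74) were called lower. Of 8 augmin subunits 5 were called lower, with a median of -1.29 over the 8, among them Haus1 with its listed 0 in both MAR1INT libraries.

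The files list 0 for some of these genes in MAR1INT, and a listed 0 can be a failed estimate. In MAR1INT replicate 1, 8 of the 58 genes were at 0 (13.8%), and in replicate 2 it was 7 (12.1%). They were 10 genes in all, 5 of them at 0 in both MAR1INT libraries (Cdc25c, Cenpm, Cenpw, Haus1 and Cep55). No gene of the 58 was at 0 in a MAR1HI or BaP library. Of 8919 genes with a mean of at least 5 TPM over the MAR1HI and BaP libraries together, 4.29% and 3.21% were at 0 in the MAR1INT libraries. As a sign of how often a 0 goes against its duplicate, 14 of 4740 genes with 20 TPM or more in MAR1INT replicate 2 were at 0 in replicate 1, and 19 of 4965 the other way round. Among the 48 genes never at 0, 47 were called lower in both MAR1INT comparisons, with a median of -3.10 against MAR1HI and -2.70 against BaP.

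Some levels are uncertain because the gene has a close copy or overlaps another gene. Transcripts of 7 of the 58 genes (Cdc20, Cks2, Kif11, Kif2c, Kifc1, Ndc80 and Plk1) matched another gene's transcript at 90% identity or more over at least 200 bases and 30% of their length. The intervals of 25 of the 58 overlapped another reference gene, and whether strand was used in the summary is not given in the sources used here.

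Depth was similar across libraries, and all 6 carried the basophil markers. The tables implied 4.75 to 5.28 gigabases of aligned sequence per library, and genes at 1 TPM or more numbered 9604 and 9705 in MAR1INT, 10710 and 11038 in MAR1HI, and 10983 and 11544 in BaP. All 11 basophil markers were above 0 in every library. Their sum was 16138 and 13364 TPM in MAR1INT, 22684 and 19168 TPM in MAR1HI, and 17474 and 22425 TPM in BaP. Single markers went both ways, with 6 changes against MAR1HI below 0 and 5 above. There 3 were called lower and 2 higher, against 14.5% and 2.29% of all genes tested. Against BaP 4 were called lower and 5 higher, against 20.4% and 11.1%. In MAR1HI against BaP 4 were called higher and 0 lower, against 1.83% and 0.662%. Mcpt8 had 2745 and 2161 TPM in MAR1INT and 6416 and 4839 TPM in MAR1HI. Csf2rb had 1584 and 1527 TPM in MAR1INT and 629 and 743 TPM in MAR1HI. Cd34, the gene of the BaP gate, stood at 0.134 and 0 TPM in MAR1INT, 4.67 and 7.63 TPM in MAR1HI, and 52.6 and 44.1 TPM in BaP. Kit stood at 0.0446 and 0.449 TPM in MAR1INT, 2.94 and 4.36 TPM in MAR1HI, and 44.9 and 38.6 TPM in BaP, although c-Kit protein was gated out of all 3.

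Marker lists of other marrow lineages were summed as well. Of the neutrophil list 4 of 12 genes were called lower in MAR1INT than in MAR1HI, against 14.5% of all genes tested, and the sum was 3924 and 3291 TPM in MAR1INT, 4913 and 3770 TPM in MAR1HI, and 6181 and 11168 TPM in BaP, with Fcnb at 0 in both MAR1INT libraries. Erythroid markers (2 of 12 lower, against the same 14.5%) summed to 2791 and 1267 TPM in MAR1INT, 1212 and 612 TPM in MAR1HI, and 1555 and 2337 TPM in BaP, with Rhag at 0 in both MAR1INT libraries. The dendritic and MHC class II list (3 of 7 tested genes lower, against 14.5%) summed to 16.1 and 25.6 TPM in MAR1INT, 73.3 and 60.2 TPM in MAR1HI, and 991 and 358 TPM in BaP, with Flt3 and Ciita at 0 in both MAR1INT libraries. The dendritic sums of the 3 groups did not overlap and were lowest in MAR1INT, while the neutrophil sums of MAR1INT and MAR1HI overlapped. Single neutrophil genes parted, with 7 of the 12 changes against MAR1HI below 0 and 5 above. Mpo had 113 and 65.1 TPM in MAR1INT and 615 and 495 TPM in MAR1HI. Ctsg had 105 and 96.5 TPM in MAR1INT and 925 and 937 TPM in MAR1HI. S100a8, the largest part of the sum in both groups, had 1867 and 1665 TPM in MAR1INT and 1505 and 894 TPM in MAR1HI. Eosinophil markers summed to 81.5 and 228 TPM in MAR1INT, 81.2 and 119 TPM in MAR1HI, and 2160 and 1146 TPM in BaP, with Epx, Prg3, Ear6 and Il5ra at 0 in both MAR1INT libraries and Ear6 in both MAR1HI libraries. Siglecf was highest in MAR1INT, with 79.5 and 109.8 TPM, against 29.5 and 44.5 TPM in MAR1HI and 21.9 and 20.9 TPM in BaP. Of the 7 eosinophil genes tested, 3 had a change above 0 against MAR1HI and 3 below. There 1 was called higher and 0 lower, against 2.29% and 14.5% of all genes tested. Monocyte and macrophage markers summed to 264 and 212 TPM in MAR1INT, 239.9 and 289.8 TPM in MAR1HI, and 597 and 1081 TPM in BaP, with Spic at 0 in both MAR1INT libraries. Adgre1 had 25.5 and 47.6 TPM in MAR1INT, 6.51 and 7.38 TPM in MAR1HI, and 41.6 and 24.8 TPM in BaP. Of these 10 genes, 3 had a change above 0 against MAR1HI and 7 below. There 1 was called higher and 0 lower, against the same 2.29% and 14.5%. In both lists the BaP sums lay above those of the other groups, which overlapped. Sums of the B and plasma cell list ranged from 14.8 to 30.3 TPM in MAR1INT, 39.0 to 42.9 TPM in MAR1HI and 22.7 to 29.3 TPM in BaP, with Ms4a1 and Pax5 at 0 in both MAR1INT libraries. The T and NK cell list ranged from 33.5 to 51.5 TPM in MAR1INT, 195.9 to 196.6 TPM in MAR1HI and 371 to 381 TPM in BaP, nearly all of it Nkg7 (32.3 and 51.5 TPM in MAR1INT, 194 and 194 TPM in MAR1HI, 371 and 380.1 TPM in BaP), with Cd3g at 0 in all 6 libraries. Megakaryocyte markers ranged from 343 to 443 TPM in MAR1INT, 405 to 530.0 TPM in MAR1HI and 256 to 267 TPM in BaP, nearly all of it Itga2b (436 and 338 TPM in MAR1INT, 398 and 529 TPM in MAR1HI, 238 and 261 TPM in BaP), with Pf4 at 0 in both MAR1INT libraries. The mast cell list was at most 0.449 TPM in MAR1INT, 5.14 TPM in MAR1HI and 45.5 TPM in BaP, with Tpsab1 and Mcpt1 at 0 in all 6 libraries. In MAR1INT and BaP it was nearly all Kit. In MAR1HI it summed to 4.18 and 5.14 TPM, with 2.94 and 4.36 TPM from Kit and 1.14 and 0.378 TPM from Tpsb2. The stem and progenitor list spanned 609 to 686 TPM in MAR1INT, 422 to 452 TPM in MAR1HI and 381 to 452 TPM in BaP. Gata2, also on the basophil list, made the largest part, with 675 and 602 TPM in MAR1INT and 404 and 424 TPM in MAR1HI. Flt3, Mecom and Myct1 were at 0 in both MAR1INT libraries, and Mecom also in both MAR1HI libraries. Of the 6 genes tested, 5 had a change below 0 against MAR1HI and 1 above. There 2 were called lower and 0 higher, against 14.5% and 2.29% of all genes tested. Against BaP 3 were called lower and 1 higher, against 20.4% and 11.1%. The part of these other cell types in the levels of the mitosis genes was not tested.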

How the data were processed

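Total RNA (TRIzol LS) went into a capture-based library kit, per the labels' protocols. Reads were processed with Trimmomatic, HISAT2 and StringTie on mm10, per the submitters' processing notes, which name no versions. Each deposited table gives, per the file headers, coverage (a signal, mean read depth per base), FPKM and TPM for each gene. The authors' TPM was the unit analysed, and the authors' FPKM was used in an alternative. Read counts were not used, so counting intervals are not given, and the depth was implied by the authors' ratio of FPKM to coverage. Of 24532 gene IDs, 24462 matched a symbol in a GRCm38.p6 reference table. Genes at 1 TPM or above in no fewer than 2 libraries were analysed as log2(TPM + 1), which understates changes of low genes, with limma 3.58.1 in R 4.3.3 (trended eBayes). There was 1 term per group over 6 libraries, with 3 residual degrees of freedom and 6.39 prior ones at the median, and two-sided p-values were adjusted by Benjamini-Hochberg over 11337 genes. The code was tested on simulated data. Alternatives were another pseudocount and filters, FPKM, quantile and median-of-ratios scaling, a replicate block, the 2 compared groups alone and leaving out each library. Tables and figures were made in matplotlib 3.10.9, numpy 2.4.6, pandas 2.3.3 and Python 3.11.15. The genes described were chosen, as were the other gene and marker lists, with earlier results of these data known. Genes with values in every library were, per role, the most abundant, the 2 most changed and the least changed in MAR1INT against MAR1HI. Of the other mitosis genes, the 4 lowest and 4 highest changes were named. Cenpf, Aurkb, Ube2c, Ndc80 and other genes given with library values outside that rule were chosen after their values were seen, as were Anapc2 and Stag2 against BaP.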

Additional observations from a re-analysis of the deposited data

How the results depend on the processing

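With 2 libraries per group and no read counts, precision rests on limma's pooled spread, and levels near 0 are the least certain. The median of the 58 genes stayed below 0 in both MAR1INT comparisons under every setting tried. Leaving out each library in turn, the genes called lower ranged from 35 to 57 against MAR1HI, the 35 being without MAR1HI replicate 2, and from 54 to 57 against BaP. Their median ranged from -3.43 to -2.97 against MAR1HI and from -2.92 to -2.81 against BaP, the median between MAR1HI and BaP from 0.14 to 0.52, and the F test count from 51 to 57. Where 1 library was left in a group, it was assumed to vary like the others. Without a filter on low values (18601 genes tested) 48 genes were called lower against MAR1HI and 54 against BaP. Those not called against MAR1HI were Anln, Aurkb, Bub3, Cdkn3, Cks2, Hmmr, Kif15, Kif4, Pttg1 and Smc2. Anln, Cdkn3, Hmmr and Pttg1 were not called against BaP in that setting. Without that filter 511 of all genes were called lower against MAR1HI. After quantile normalization the median against MAR1HI was -2.73, beside 0.11 for all genes. With only MAR1HI and BaP in the fit, 1 gene (Cenpf) was called higher in MAR1HI. The cause of these shifts was not tested. The labels number the replicates 1 and 2 in every group, and no pairing by number was assumed in the main fit. Deviations of same-numbered libraries had an r across genes of 0.154 for MAR1HI and BaP, -0.0922 for MAR1INT and BaP, and -0.0592 for MAR1INT and MAR1HI. These values were not tested and, with 2 libraries per group, cannot show whether libraries were paired. With the replicate block the counts were 57 lower against MAR1HI, 57 lower against BaP, 0 between MAR1HI and BaP, and 57 in the F test.

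Changes between MAR1HI and BaP, none of them called, turned sign for several of the genes named. With FPKM they were -0.00152 for Birc5, -0.12 for Ttk, -0.034 for Pttg1, -0.086 for Cenpk and -0.082 for Kif15. After quantile normalization they were -0.072 for Birc5, -0.21 for Ttk, -0.10 for Pttg1, -0.16 for Cenpk, -0.16 for Kif15 and -0.013 for Tpx2. With median-of-ratios factors they were -0.075 for Birc5, -0.19 for Ttk, -0.11 for Pttg1, -0.16 for Cenpk, -0.16 for Kif15, -0.042 for Kif11, -0.0051 for Tpx2, -0.0099 for Prc1 and -0.0034 for Smc4. With libraries left out they ranged from -0.11 to 0.32 for Ttk, -0.27 to 0.17 for Bub3, -0.049 to 0.83 for Cdc25c, -0.22 to 0.12 for Cks2, -0.22 to 0.49 for Cenpk, -0.25 to 0.17 for Cenpm and -0.31 to 1.33 for Cenpw. Against MAR1HI, Pttg1 in MAR1INT changed by 0.0088 after quantile normalization. Among values of single genes, 1025 kept direction and call, 34 lost a call and 30 changed sign. A setting without the 10 genes listed at 0, chosen after seeing the data, left 47 of 48 genes called lower in both comparisons.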
